A study of Mus musculus with 2 samples.

Results

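The interferon regulatory factor (IRF) genes Irf1, Irf2, Irf3, Irf4, Irf5, Irf7, Irf8 and Irf9 were followed in sorted fetal liver macrophages of wild-type and c-Maf knockout mice. They were represented by 14 of the 45101 probe sets of the array, namely each probe set that the platform annotation assigns to only 1 gene, that gene being one of these 8. All 14 carried the current symbols. Irf3 had 4 probe sets, Irf4, Irf5 and Irf8 had 2 each, and Irf1, Irf2, Irf7 and Irf9 had 1 each.

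Both groups were C57BL/6J fetuses at E15.5 (counted in days of embryonic life), c-Maf+/+ in the first and c-Maf-/- in the second, with 1 GeneChip array per genotype and no replicates. The Maf gene encodes c-Maf, a leucine zipper transcription factor of macrophages and other cells, and the knockout is carried by the whole animal. Cells positive for both Mac-1 and F4/80 were sorted, and their total RNA was labelled with biotin. The labels do not say how many fetuses gave each sample, and the design asked which genes are lower without c-Maf.

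IRFs share an N-terminal DNA-binding domain with a series of conserved tryptophans, which recognises GAAA repeats in the promoters of interferons and of interferon-stimulated genes. IRF3, IRF5 and IRF7 are activated by phosphorylation downstream of pathogen sensors, IRF9 binds DNA together with STAT2 after interferon receptors are engaged, and IRF1 and IRF2 act largely as activator and as repressor on shared sites. IRF4 and IRF8 bind DNA weakly alone and pair with PU.1 and other factors. IRF8 directs the monocyte, macrophage and dendritic cell lineages, and IRF4 is best known in lymphocytes and in some dendritic cells.

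The promoters of 3 members hold letters recognised by the pathway itself, and they are shown here because they belong to the member with the lowest level-adjusted ratio of knockout over wild type, Irf8, and to Irf1 and Irf2, which were within 2-fold. Each is the stretch of 250 bases before the annotated start of the gene in RefSeq (GRCm38.p6), printed 5′ to 3′. Capitals mark matches to the interferon-gamma activated site TTCNNNGAA, an element of interferon-gamma inducible genes, and in Irf2 also to the interferon-stimulated response element GAAANNGAAA and the composite Ets-IRF element GGAANNGAAA, which overlap each other.
Irf8, chr8:120736108-120736357, plus strand: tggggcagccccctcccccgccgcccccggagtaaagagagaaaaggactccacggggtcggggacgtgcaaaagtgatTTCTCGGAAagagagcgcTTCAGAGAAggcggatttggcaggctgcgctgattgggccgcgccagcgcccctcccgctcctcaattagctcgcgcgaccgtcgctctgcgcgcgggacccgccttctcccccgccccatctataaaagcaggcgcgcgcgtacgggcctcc
Irf1, chr11:53769764-53770013, plus strand: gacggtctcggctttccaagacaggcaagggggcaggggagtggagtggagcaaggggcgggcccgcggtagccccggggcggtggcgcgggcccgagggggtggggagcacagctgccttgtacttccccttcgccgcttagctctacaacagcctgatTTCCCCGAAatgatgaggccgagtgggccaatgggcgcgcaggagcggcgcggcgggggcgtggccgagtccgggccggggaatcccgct
Irf2, chr8:46739495-46739744, plus strand: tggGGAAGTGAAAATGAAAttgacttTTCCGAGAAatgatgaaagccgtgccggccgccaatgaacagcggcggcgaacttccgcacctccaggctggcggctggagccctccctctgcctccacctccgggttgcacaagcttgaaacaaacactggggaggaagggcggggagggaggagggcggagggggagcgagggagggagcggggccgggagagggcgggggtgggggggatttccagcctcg
Irf8 holds 2 matches to TTCNNNGAA, TTCTCGGAA and TTCAGAGAA, with 162 and 144 bases between them and the start. Irf1 holds TTCCCCGAA, with 81 bases between it and the start. Irf2 holds TTCCGAGAA beside GAAAATGAAA and GGAAGTGAAA.

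On both strands, the letters TTCNNNGAA were found in 3 of the 11 RefSeq windows of these 8 genes (Irf1, Irf2 and Irf8), against 8.29% of all 32817 windows of 300 bases. GAAANNGAAA was found in 1 of the 11, against 3.43% of all windows, and GGAANNGAAA in 1 of the 11, against 2.72%; both are in Irf2. The letters TGCTGA, a part of the Maf recognition element, were found in 1 of the 11 windows, at the second annotated start of Irf8, against 19.5% of all windows. The only window of Irf5 lies inside the gene, and the only window of Irf7 overlaps its gene in part. The bases before the outermost start of these genes were thus not searched, or not fully. A match describes letters only, and no binding was measured here.

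Maf itself was lower in the array labelled knockout by its bright probe sets. The brightest of its 6 read 47.6 in wild type but 0.219 in knockout, under the floor explained below, and the next 20.96 and 0.143. The other 4 were near or under the floor: 2 of them exceeded it in wild type only, 1 was below it on both arrays, and the last (4.96 and 3.25) was at 0.07 on the level-adjusted log2 scale. The position of the probe sets relative to the deletion is not known, so they check the labels only in part.

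Signals are linear intensities as deposited, and the knockout array was dimmer. Its median probe set read 2.98, against 4.73 in wild type, and the median gene measured on both arrays had a log2 ratio of knockout over wild type of -0.93. Each member is therefore given with its deposited signals and with a level-adjusted log2 ratio, taken after quantile normalization of both arrays. Values under the pooled 50th percentile (3.70 as deposited, 3.75 after adjustment) were raised to that floor, so a ratio with 1 array under the floor is a bound. Quantile normalization sets both arrays to 1 distribution, and the 18 hybridisation control probe sets, at 0.24 as deposited, lay at 1.04 after it. Probe sets of the same gene differed in their level-adjusted log2 ratio with an SD of 0.72 (3946 probe sets of 1625 genes with a signal of at least 15.0). This is the only yardstick of spread, and it says nothing of how animals, sorts or arrays vary.

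Irf8 had the lowest level-adjusted ratio of the 8 members and was the only one at least 2-fold lower on the knockout array by that measure. None was at least 2-fold higher. Of all 13290 measured genes, 9.05% were lower by at least that much and 8.34% higher, so 1 of 8 is close to the background. All 8 genes were measured on at least 1 array, 7 of them on both. Their level-adjusted median was -0.09, against 0.01 for all measured genes. In deposited signal 4 of the 8 (Irf3, Irf5, Irf7 and Irf8) were at least 2-fold lower and 0 higher, where the background was 39.8% lower and 1.19% higher. The deposited median was -1.03 for the members and -0.79 for all measured genes. For genes measured on both arrays, as 7 of the members were, it was -0.93.

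**Figure D1:**
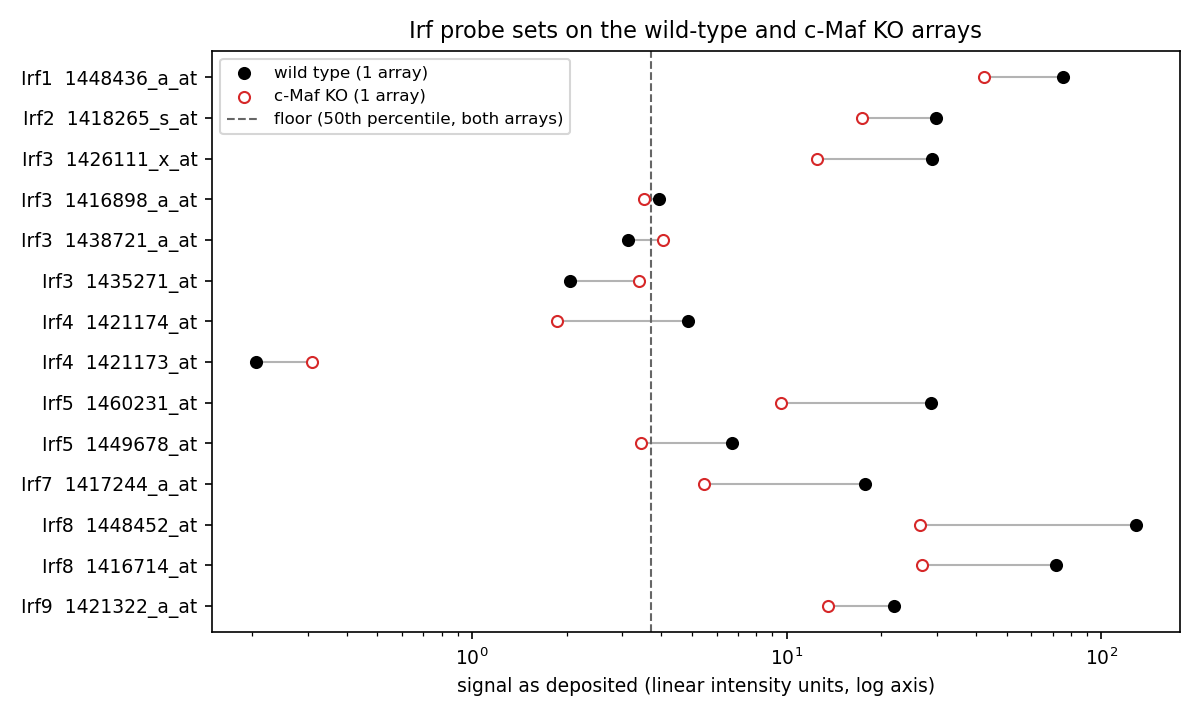
Deposited signal of each of the 14 Irf probe sets (log axis, linear intensity units) on the wild-type array (filled) and the c-Maf KO array (open), 1 array each and so without error bars; the dashed line is the floor of 3.70. The knockout signal is lower for 11 probe sets and higher for 3, and those 3 lie at or below 4.06 on both arrays.

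Irf8 encodes the lineage factor of monocytes and dendritic cells. Its brighter probe set, 1448452_at, went from 129 in wild type to 26.5 in knockout, a log2 ratio of -2.28 as deposited and -1.11 level-adjusted, which is 2.16-fold lower. The other, 1416714_at, went from 71.8 to 26.9, a ratio of -1.41 as deposited and -0.24 level-adjusted. Both were thus dimmer on the knockout array, but the level-adjusted deficit of the second was within 2-fold. The platform annotation gives both probe sets the same source sequence. The ratios differ by 0.87, and among 1625 genes with at least 2 bright probe sets 48.7% had a gap at least as wide. Genes with more than 2 bright probe sets, which have more room for a wide gap, are included, so this share is not matched to Irf8. With the mean of both probe sets, Irf8 was at -0.68, so the call of 2-fold rests on 1 probe set.

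Beside probe sets of similar signal, the brighter Irf8 probe set stood low. Probe sets were divided into 10 bins by mean deposited signal, and in its bin the level-adjusted median was -0.15 with quartiles of -0.62 and 0.34; 8.30% of the bin was lower than Irf8. For the second probe set, in the bin below, 39.9% was lower. For the control gene Actb the 3' probe set was 13.3 times as bright as the 5' one in wild type and 6.05 times in knockout, and for Gapdh these ratios were 1.83 and 0.90. A ratio can thus depend on where probes lie along a transcript, and the part of this in the gap between the Irf8 probe sets was not tested.

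Irf4, the closest relative of Irf8, was hardly detected. The probe set 1421174_at went from 4.85 to 1.87, and 1421173_at had 0.206 and 0.310. The first exceeded the floor in wild type only and was at least 1.02-fold lower after level adjustment, and the second was below the floor on both arrays. No direction can be given for Irf4.

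Among the factors activated downstream of pathogen sensors, Irf7 and Irf5 had the next lowest ratios after Irf8. Irf7, the main amplifier of type I interferon production, went from 17.8 to 5.46. Its log2 ratio was -1.70 as deposited and -0.80 level-adjusted, which is 1.74-fold lower. In its signal bin 18.4% of probe sets were lower. At a threshold of 1.5-fold, 2 of the 8 members were lower (Irf7 and Irf8) and 0 higher, against 21.0% and 21.2% of all genes.

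Irf5, which drives inflammatory cytokine genes in macrophages, had probe sets with the same sign. The brighter, 1460231_at, went from 28.7 to 9.59, a log2 ratio of -1.58 as deposited and -0.53 level-adjusted. The dimmer, 1449678_at, went from 6.71 to 3.43, which is below the deposited floor, and was at -0.26 level-adjusted. Neither reached 1.5-fold after level adjustment, and 26.8% of the bin of the brighter one was lower.

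Irf3, the constitutive factor of the first interferon-beta response, had only 1 of 4 probe sets clearly above the floor. That one, 1426111_x_at, went from 29.0 to 12.5, a log2 ratio of -1.21 as deposited and -0.14 level-adjusted. The others were near the floor: 1416898_a_at had 3.92 and 3.52, 1438721_a_at had 3.12 and 4.06, and 1435271_at had 2.04 and 3.39. After adjustment these 3 exceeded the floor on the knockout array only, with bounds of 0.26, 0.48 and 0.20. After level adjustment the bright probe set and the dim ones therefore have opposite signs, but as deposited 1416898_a_at was lower in knockout too, at -0.08. The suffix _x marks probes that can bind related sequences. No direction for Irf3 is carried by all its probe sets.

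Irf1, Irf2 and Irf9 formed the upper end of the family. Irf1, an interferon-gamma inducible activator, went from 75.8 to 42.3, a log2 ratio of -0.84 as deposited and 0.32 level-adjusted. Irf2, its antagonist at many promoters, went from 29.8 to 17.4, at -0.78 as deposited and 0.33 level-adjusted. Irf9, a DNA-binding partner of STAT2, went from 22.0 to 13.5, at -0.70 as deposited and 0.36 level-adjusted. The 3 ratios lie within 0.72 log2 units of each other and of the median gene, and their sign turned with the scaling. They were below 0 as deposited, with equal medians and with hybridisation controls as reference, and above 0 in the other settings. In their signal bins 70.7% (Irf1), 70.3% (Irf2) and 69.8% (Irf9) of probe sets were lower.

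**Figure D2:**
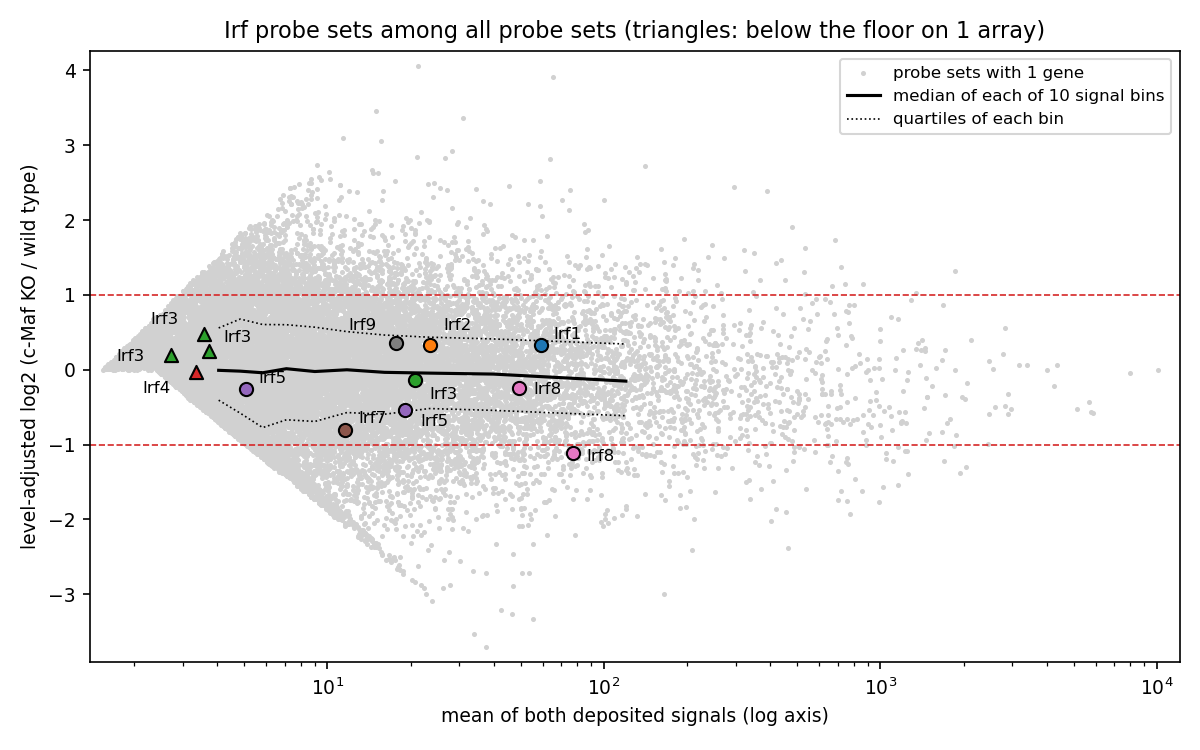
Level-adjusted log2 ratio of c-Maf KO over wild type against the mean deposited signal (log axis) for probe sets with 1 gene (grey) and for the 13 Irf probe sets above the floor on at least 1 array (coloured; triangles are below the floor on 1 array), with the median and quartiles of 10 signal bins and dashed lines at 2-fold. The brighter Irf8 probe set alone among the Irf probe sets lies past a dashed line, at -1.11, and the Irf1, Irf2 and Irf9 probe sets lie between 0.32 and 0.36.

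From the lowest level-adjusted ratio, the 7 genes measured on both arrays ran Irf8, Irf7, Irf5, Irf3, Irf1, Irf2 and Irf9. The order was the same in deposited signal, and scaling by a constant or moving the floor left it as it was by construction. The order did change in other alternatives. With the floor as a pseudocount Irf1 moved to the top, and with means over probe sets Irf7 came before Irf8. Such means left the ratios of Irf1, Irf2, Irf7 and Irf9, with 1 probe set each, unchanged. The gap between Irf9 and Irf8 was 1.47 log2 units level-adjusted, 1.58 as deposited and 1.04 with means over probe sets. Neighbours in the order differ by less than the yardstick of 0.72. The yardstick is a spread of single ratios, whereas the gap was picked as the widest among 7 ranked genes. It therefore cannot say whether the gap is large. Irf8, Irf7 and Irf5 had ratios below 0 in each setting run for them, from -2.57 to -0.68 for Irf8, -1.99 to -0.57 for Irf7 and -1.87 to -0.40 for Irf5.

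**Figure D3:**
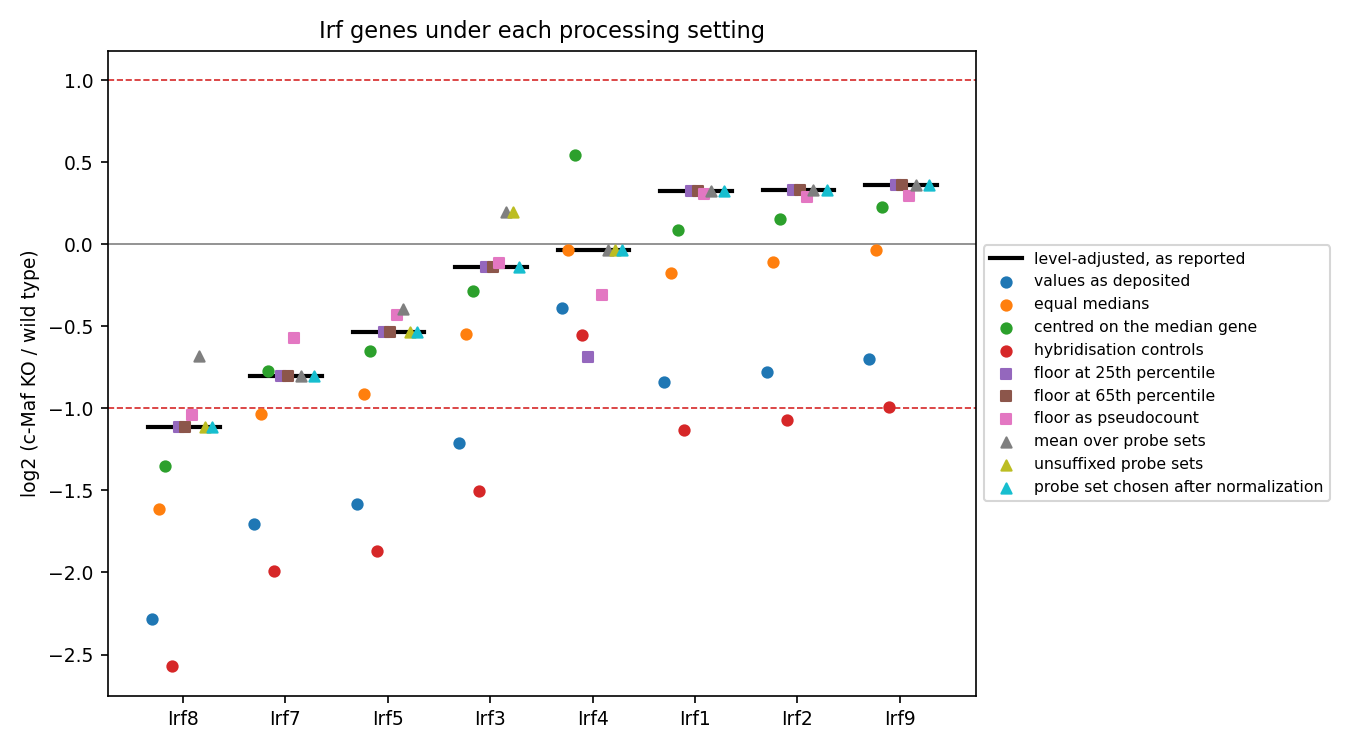
Log2 ratio of c-Maf KO over wild type for each of the 8 Irf genes as reported (black bar, level-adjusted) and under each alternative scaling (circles), floor (squares) and choice of probe set (triangles), with dashed lines at 2-fold. Irf8, Irf7 and Irf5 stay below 0 throughout, while Irf1, Irf2 and Irf9 lie above 0 as reported and below 0 in deposited signal.

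Other cells that express IRFs were present in the sort or could have been. In bulk RNA, fewer cells of a type and less RNA per cell cannot be told apart. The macrophage markers summed to 941 in wild type and 508 in knockout, a log2 ratio of -0.89 in deposited signal. Of 12 listed, 11 were named on the array, all above the adjusted floor. Csf1r, the receptor for colony stimulating factor 1, read 625 and 248 and made up most of the wild-type sum. After level adjustment 4 of the 11 were at least 2-fold higher and 1 lower, with a median of 0.60. Of all measured genes 8.34% were higher and 9.05% lower by as much, a background that holds for the other markers too. The deposited ratios of marker sums are to be read beside the median of -0.79 over all genes, since the knockout array was dimmer. That background depended on signal, with a median of -0.42 in the dimmest of the 10 signal bins and -1.28 in the brightest. Bright genes weigh most in the sums, so -0.79 is not a matched reference for them. Of the genes behind the sort antigens, Adgre1 (F4/80) read 71.4 and 48.1, and Itgam (Mac-1) was near the floor at 5.76 and 3.94. The monocyte markers (4 of 6 named) summed to 2631 and 1027, at -1.36, led by the chemokine receptor gene Ccr2 (1212 and 190; other probe sets between -0.81 and 1.77 level-adjusted, against -1.74 for this one). After level adjustment 1 of the 4 was at least 2-fold lower (Ccr2) and 1 higher (Plac8, 473 and 586). The granulocyte markers (9 of 10 named) summed to 14840 and 8580, at -0.79, led by S100a9 (4926 and 3812). After level adjustment 2 of the 9 were at least 2-fold lower and 0 higher, with a median of -0.52. The stem and progenitor markers (5 of 5 named) summed to 521 and 78.0, at -2.74, led by Myb (381 and 43.5). Of these 5, 3 were at least 2-fold lower after level adjustment and 0 higher, with a median of -1.20. The part of these cells in the Irf8 difference was not tested.

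Markers of dendritic and lymphoid cells, in which Irf4, Irf7 and Irf8 are also active, were dim; below the floor here means after adjustment. The plasmacytoid dendritic cell markers (6 of 6 named) summed to 94.1 and 48.9 (a log2 ratio of -0.94 in deposited signal), and Siglech was below the floor on both arrays. Tcf4 was the brightest (44.0 and 12.8, -0.67 level-adjusted), with other probe sets between -0.31 and 1.37. The conventional dendritic cell markers (5 of 6 named) summed to 36.3 and 14.5 (-1.33), with Xcr1 and Cd209a below the floor on both arrays (Cd209a, at 4.11 in wild type, exceeded the deposited one) and Flt3 the brightest (19.5 and 1.44). The B lineage markers (8 of 9 named) summed to 66.5 and 26.0 (-1.36), with Ms4a1 below the floor on both arrays and Igll1, a surrogate light chain gene of early B cells, the brightest (20.5 and 4.57). The T and NK markers (6 of 6 named) summed to 40.4 and 14.5 (-1.48). Of these, Cd3e, Cd3g, Cd2 and Ncr1 were below the floor on both arrays (Ncr1, at 3.91 in wild type, exceeded the deposited one), and Nkg7 was the brightest (26.1 and 7.89). Level-adjusted medians were 0.35 for 5 measured plasmacytoid markers, 0.23 for 3 conventional, -0.40 for 7 B lineage and -0.05 for 2 T and NK. At least 2-fold lower were Flt3, as a bound, and Igll1, 1 in each of their lists, and 0 genes were higher. The part of dendritic and lymphoid cells in the Irf differences was not tested.

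Among cells that are not leukocytes, the erythroid markers (6 of 7 named) summed to 8029 and 5138, with Hbb-y at 7061 and 4650. Hba-a1 was below the adjusted floor on both arrays, but it was read by 1 probe set only, which cannot show that the transcript was absent. After level adjustment 1 of the 5 measured erythroid markers was at least 2-fold higher (Klf1) and 0 were lower. The hepatoblast markers (8 of 8 named) summed to 346 and 552, with all 8 at least 2-fold higher after level adjustment (3 as deposited) and Afp the brightest (209 and 268). Megakaryocyte markers (3 of 4 named, with Pf4 the brightest at 102 and 52.1) summed to 140 and 73.1. Of these 3, 1 was at least 2-fold lower after level adjustment (Gp9, as a bound) and 0 were higher. Mast cell and basophil markers (3 of 4 named; Mcpt8 the brightest, 19.5 and 16.7, Fcer1a below the adjusted floor on both arrays) summed to 29.0 and 25.2. Endothelial and stromal markers (6 of 6 named; Kdr the brightest, 11.9 and 6.92, Pecam1 below the adjusted floor on both arrays) summed to 38.0 and 29.4.

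Upstream of IRF activation, Sting1, Cgas and Tbk1 were among the lower genes and Ifih1 and Zbp1 were higher. Of 22 listed sensors, adaptors and kinases, 19 were named on the array and 17 measured, with 5 lower by at least 2-fold and 2 higher by as much after level adjustment (9.05% and 8.34% of all genes). Their median was -0.47 level-adjusted, against 0.01 for all genes, and -0.88 as deposited, against -0.79; as deposited 19 were measured, 9 of them lower and 1 higher, against 39.8% and 1.19% of all genes, so the deposited count of lower genes is near the background. Sting1, the adaptor that carries the cytosolic DNA signal to TBK1 and IRF3, went from 33.8 to 4.21 (-2.08 level-adjusted), and its other probe set was at -1.69. Cgas, the DNA sensor that makes the ligand of STING, went from 56.4 to 9.64 (-1.46), with its other probe set at -0.79. Tbk1, the kinase that phosphorylates IRF3, went from 58.5 to 10.6 (-1.38), but its other probe set was at 0.15. Higher members were Ifih1, the RNA sensor MDA5 (7.80 to 10.7, 1.35), and Zbp1, a nucleic acid sensor (1.81 to 12.95, at least 5.01-fold higher). Ticam1, the adaptor of TLR3 and TLR4, was above the floor in wild type alone (6.67, at least 1.38-fold lower).

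Interferon receptor and JAK-STAT genes were mixed, and the background of 9.05% lower and 8.34% higher (39.8% and 1.19% as deposited) holds for this list and those that follow. Of 14 listed, 13 were named and 12 measured, with 2 at least 2-fold lower, 2 higher and a median of 0.13 level-adjusted (-0.90 as deposited, where 6 of 13 were lower, near the background, and 1 higher). Jak1, a kinase shared by interferon receptors, went from 25.9 to 64.7 (2.45 level-adjusted, 1.32 as deposited), and its other probe sets were at 0.50 and 1.93. Ptpn2, a phosphatase that dampens JAK and STAT proteins, went from 770 to 145 (-1.34), with other probe sets between -0.87 and 0.30. Socs3, a feedback inhibitor, went from 11.0 to 13.2 (1.23; others -0.15 and 1.67), and Ifnar2, a chain of the type I interferon receptor, from 173 to 35.2 (-1.11; others -0.92 and 0.81). Of these 4 genes Jak1 alone had all its probe sets on 1 side of 0. Stat2, the partner of IRF9, was below the adjusted floor on both arrays (3.72 and 2.82).

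Partners and cofactors of IRFs were, in their level-adjusted counts, close to the background. Of 14 listed, 13 were named and measured, with 1 at least 2-fold lower, 0 higher and a median of -0.21 level-adjusted. As deposited the median was -1.16 and 9 of 13 were lower, against 39.8% of all genes. That share is not matched for signal: 12 of the 13 exceeded the adjusted floor on both arrays. The median deposited ratio was -0.42 in the dimmest of the 10 signal bins and -1.28 in the brightest. The 1 lower gene after level adjustment was Crebbp, an acetyltransferase coactivator of IRF3 (20.9 to 3.48, -1.72, with others at -1.09 and -0.39). Batf, a partner of IRF4 and IRF8, went from 15.0 to 14.4 (0.96), and Irf2bpl from 24.3 to 19.6 (0.79; other -0.13). Spib, an Ets partner of IRFs in lymphoid and plasmacytoid cells, was above the floor in wild type alone (8.26, at least 1.69-fold lower). Spi1, encoding the IRF8 partner PU.1 and named here after its values were seen, went from 47.7 to 22.7 (-1.07 as deposited, 0.08 level-adjusted).

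Of 10 genes linked to IRF8 in myeloid cells, 9 were named and 7 measured, of which 1 was at least 2-fold lower and 0 higher, close to the 9.05% and 8.34% of all genes. Their median was 0.32 level-adjusted and -0.53 as deposited, where 3 of 9 were lower, against 39.8%. Klf4, a monocyte transcription factor downstream of IRF8, went from 87.0 to 16.1 (-1.29), with its other probe set at -1.01. Pml went from 9.97 to 3.75 (-0.66; others -0.74 and -0.42). Cybb, the catalytic subunit of the phagocyte oxidase, went from 78.5 to 22.5 (-0.65; others -0.08 and 0.92), and Cst3, encoding cystatin C, from 74.8 to 51.6 (0.63). Il12b and Ciita were below the adjusted floor on both arrays. The members of this list thus lay on both sides of the median gene.

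Interferon-stimulated genes lay high in level-adjusted ratio, while the interferon-inducible Irf7 (-0.80) and Irf1 (0.32) lay on both sides of 0, within 2-fold. Of 29 listed, 27 were named and 25 measured, with 6 at least 2-fold higher and 1 lower (8.34% and 9.05% of all genes). Their median was 0.78 level-adjusted, against 0.01 for all genes, and -0.27 as deposited, against -0.79; as deposited 1 of 24 was higher and 4 lower, against 1.19% and 39.8% of all genes. With hybridisation controls as reference 0 of 24 were higher and 5 lower, against 0.712% and 51.2% of all genes. Ifitm3, an antiviral membrane protein gene, went from 156 to 232 (1.74), Xaf1 from 6.87 to 11.6 (1.65; other 0.79), and Ifit2 from 0.478 to 7.82 (at least 2.90-fold higher). Rtp4 (1.73) and Ifi27l2a (1.63) were higher as well, and Cxcl10, a chemokine gene, went from 0.160 to 4.78 (at least 1.66-fold higher). The 1 lower gene, named here after its values were seen, was Eif2ak2, encoding the kinase PKR (41.4 to 7.88, -1.35; other 0.10). The hepatoblast markers were higher on the same array, as given above, and their part in this was not tested.

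MHC class I and antigen processing genes, many of them targets of IRF1, were divided. Of 13 listed, 12 were named and measured, with 2 at least 2-fold higher and 0 lower, against 8.34% and 9.05% of all genes. Their median was 0.04 level-adjusted and -0.996 as deposited, where 6 were lower and 0 higher, against 39.8% and 1.19%. B2m, the invariant light chain, went from 110.3 to 128 (1.37; other 1.36), and the immunoproteasome gene Psmb8 from 18.1 to 17.8 (1.04; other 0.46). The peptide loading gene Tapbp went from 53.1 to 12.4 (-0.99) and the peptide transporter gene Tap2 from 19.4 to 5.29 (-0.97). Nlrc5, the transactivator of MHC class I genes, and Erap1, a peptide-trimming protease gene, exceeded the floor in wild type alone. Nlrc5 read 7.93 there and was at least 1.62-fold lower, and Erap1 read 7.30 and was at least 1.503-fold lower, with its other probe set at 0.18.

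**Figure D4:**
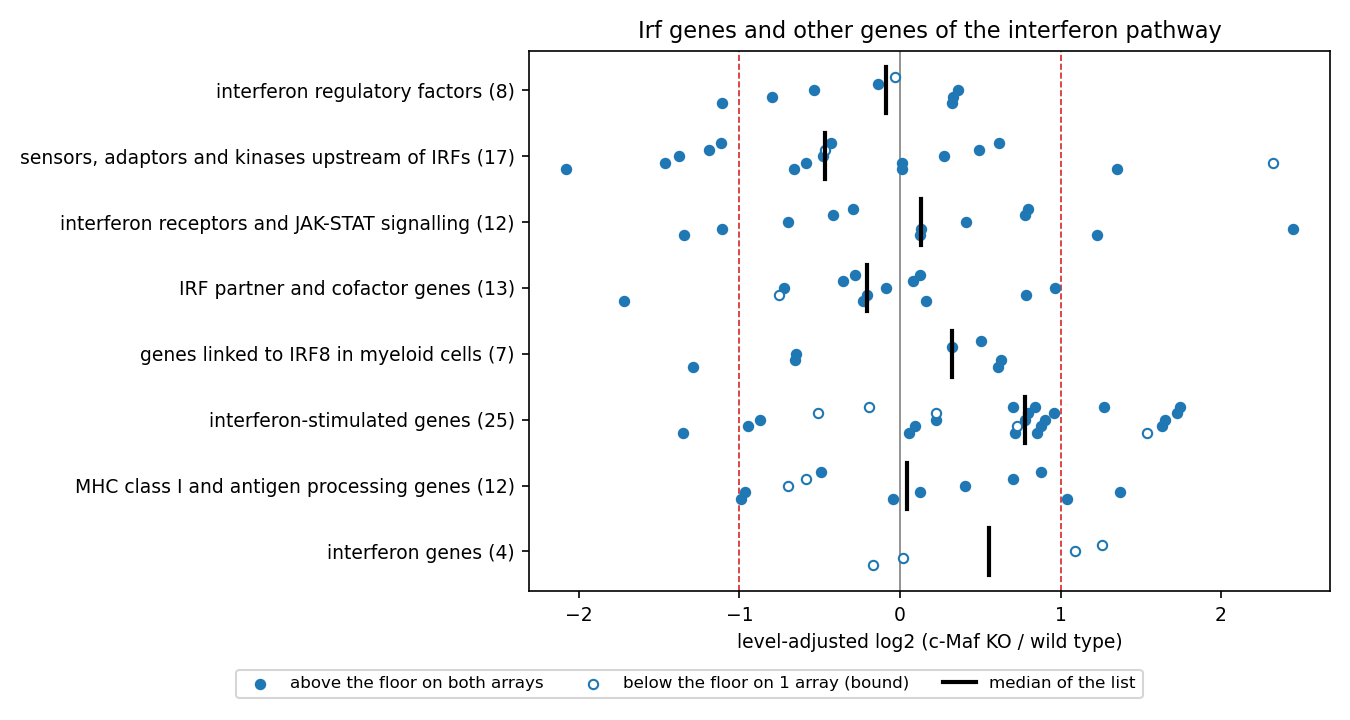
Level-adjusted log2 ratio of c-Maf KO over wild type for the 8 Irf genes and for the measured genes of 7 interferon pathway lists (number measured in brackets); open circles are bounds, black bars are medians and dashed lines mark 2-fold. The Irf median is -0.09, the sensor and adaptor list has the lowest median (-0.47) and the interferon-stimulated genes the highest (0.78).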

How the data were processed

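Total RNA of sorted cells was hybridised to 1 GeneChip array per genotype, per the labels' protocols. The authors deposited linear intensities, 1 per probe set and array. Their summarisation and scaling are not given in the sources used, and detection calls were not used. Probe sets were named from the platform annotation, with symbols updated through Entrez identifiers to RefSeq (GRCm38.p6). Of 45101 probe sets, 34945 had 1 gene and 932 several; members were matched by symbol.

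Intensities were quantile normalized on the log2 scale and floored at the pooled 50th percentile. A gene took the values of its brightest probe set (mean deposited intensity), and it counted as measured if either array reached the floor (13290 of 18193 genes). With 1 array per genotype no test was possible. Named genes were, for each pathway list, up to 4 with the largest absolute ratio and up to 2 bounds, and for each cell type list the brightest marker and markers below the floor. The members, lists and scaling were chosen with earlier results of these data known. The steps were checked on simulated arrays with large changes planted in bright genes only, and with noise smaller than the spread between probe sets. That check does not cover dim genes or ratios as small as most of those reported here. Python 3.11.15, numpy 2.4.6 and pandas 2.3.3 were used. The 13 alternatives are given in the closing section.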

Additional observations from a re-analysis of the deposited data

How the results depend on the processing

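The count of Irf genes at least 2-fold lower was 1 as reported. It was 4 with values as deposited, 2 with equal medians and 6 with the hybridisation controls as reference, 0 with the mean over probe sets, 2 at a threshold of 1.5-fold and 0 at 3-fold. It was 1, in each case Irf8, in the other 7 alternatives. The count of Irf genes at least 2-fold higher was 0 in each of the 13 alternatives. All genes called lower and higher were 1203 and 1109 as reported, 5358 and 161 as deposited, 2167 and 630 with equal medians, 1108 and 1869 with centred ratios, and 6974 and 97 with the hybridisation controls. They were 2969 and 2967 with the floor at the 25th percentile, 796 and 615 at the 65th, 686 and 881 with means over probe sets, 2786 and 2818 at 1.5-fold, 286 and 211 at 3-fold, and 664 and 479 among genes brighter than 4 times the floor. Of the single gene ratios, those of Irf1, Irf2, Irf3, Irf5, Irf7, Irf8 and Irf9 moved by more than the spread between probe sets in 2 alternatives each, values as deposited and hybridisation controls; Irf4 did so in 0. No paired analysis was possible because there was 1 array per genotype. Signal over background limits Irf4 and the dim Irf3 probe sets most.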

Other observations

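The interferon genes themselves were at the limit of detection. Of 8 listed, 4 were measured and none exceeded the floor on both arrays. Ifna2 went from 1.88 in wild type to 6.61 in knockout (at least 2.39-fold higher after level adjustment), and Ifnab 1.84 and 5.98 (at least 2.13-fold higher). Ifnb1, the interferon-beta gene, had 5.35 and 0.496 (at least 1.12-fold lower; named after its values were seen). Ifna1, Ifna4, Ifna5 and Ifna9 were below the adjusted floor on both arrays.

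Irf2bp2, a corepressor that binds IRF2, had probe sets on both sides of 0. Its brightest probe set went from 104.6 to 28.2, a log2 ratio of -1.89 as deposited and -0.73 level-adjusted, while the other 3 were between 0.11 and 0.95 level-adjusted. Among 5602 genes with at least 2 measured probe sets, 56.9% had probe sets on both sides of 0 after level adjustment.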
